A study of Mus musculus with 12 samples.

Results

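The genes described here carry the signals that pattern the crypts, villi and muscle coats of the gut: the Wnt, Notch, hedgehog, bone morphogenetic protein (BMP), activin and transforming growth factor beta (TGF-beta) pathways. They were chosen by name alone, as every non-control probe of the array whose gene name began with a family name of these pathways, such as Wnt, Fzd, Dkk, Notch, Hey, Bmp, Madh, Tgfb or Gli, or equalled Apc, Lef1 or Shh. The rule found 58 genes with 75 probes, of 18116 gene names with 20280 probes. No expression value entered it, but it was chosen with earlier results of these data known. Of the 58 genes, 47 had 1 probe and 11 had more. Wnt signalling held 18 genes, Notch 10, hedgehog 5, and BMP, activin and TGF-beta together 25.

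The small intestine of male FVB mice, 6 weeks old, was compared between fed mice (0 h) and mice from which chow had been withdrawn for 12, 24 or 72 h, to learn how gene expression adapts as fasting continues. There were 6 mice per group. Metabolic cages were used, and heat from an infrared lamp was given from 24 h onwards. RNA came from the full thickness of the gut wall, so epithelium, stroma and muscle were measured together. On each of the 12 arrays the RNA of 2 pooled mice, labelled with Cy3, was set against fed reference RNA labelled with Cy5, which gives 3 pools per time point. The reference was RNA of all 6 fed mice on 11 arrays, but the label of the array of fed pool 3 names only the 2 mice of that pool, and the dyes were never swapped. All values below are log2(Cy3/Cy5) after normalization, with 0 meaning the level of the reference, and a change is the difference of 2 time points' means on that scale. Called probes are those whose adjusted p was below 0.05 (limma, Benjamini-Hochberg over all probes). In such bulk RNA, fewer cells of a type and less RNA per cell cannot be told apart.

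In the intestinal crypt, Wnt ligands from Paneth cells and stroma bind Frizzled receptors, block the Apc and Axin complex that destroys beta-catenin, and so let beta-catenin switch on genes together with the TCF/LEF factors, of which Tcf7l2 maintains crypt proliferation. Notch, read out by the Hes and Hey repressors, keeps progenitors undecided and steers them from the secretory to the absorptive fate. Hedgehog proteins made by the epithelium signal to the mesenchyme beneath it, which in turn makes BMP ligands that act through Smad1, Smad5 and Smad4 to restrain crypts and promote villus differentiation.

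The arrays differed in ways that bear on the comparisons. The files of the fed and 72 h arrays shared a format and signal range, and those of the 12 and 24 h arrays another, with a median Cy5 intensity of 124 to 142 in the former and 392 to 627 in the latter. Thus 12 and 24 h against fed, and 72 h against 12 or 24 h, cannot be told apart from that difference, whereas 72 h against fed and 24 h against 12 h lie within a format. The Cy5 reference should not differ between time points, yet limma on Cy5 alone called 21 of the 75 members at 12 h and 26 at 24 h against fed, where it called 21.9% and 20.4% of all probes. At 72 h it called none (0.0% of all probes), with 8 members at an unadjusted p under 0.05. Of the tissue markers looked for, the enterocyte genes Vil, Apoa4, Apoa1 and Anpep and the Paneth genes Lyzs and Mmp7 were well above background, whereas no gene of the goblet list (Muc2, Tff3, Clca3, Spdef) was found by name.

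Of the 75 member probes, 7 were called at 12 h, of which 6 rose and 1 fell against fed. At 24 h there were 7, with 4 up and 3 down, and at 72 h 8, with 6 up and 2 down. That is 9.33%, 9.33% and 10.7% of the members, next to 10.9%, 10.1% and 10.6% of all probes tested, so the members were called about as often as the rest of the array. Their median log2 changes at the 3 times in order were 0.00, 0.07 and 0.08, next to -0.02, 0.02 and 0.01 over all probes. Between 12 and 24 h of fasting only Hey2 was called, 1.33% of the members against 2.91% of all probes. A moderated F-test over the 3 fasting times called 17 members, while it called 24.9% of all probes. The split of the calls moved with the normalization, from 4 higher and 3 lower to 5 higher and 6 lower at 24 h with loess within arrays, and from 6 higher and 2 lower to 6 higher and 4 lower at 72 h with median centring only. With an array left out, the 12 h count was 3 without fed pool 1 or 3, 4 without fed pool 2 and 14 without 12 h pool 1. The 24 h count was 1 without fed pool 1, 4 without fed pool 3, 24 h pool 1 or 24 h pool 3, and 11 without 12 h pool 3, which also gave 14 at 72 h. These counts with an array left out are of members alone, and whether the rest of the array moved alike is not shown. The calls fell on 14 genes, all but 1 of which are described below, with values in the plot of log ratios by pool.

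**Figure D1:**
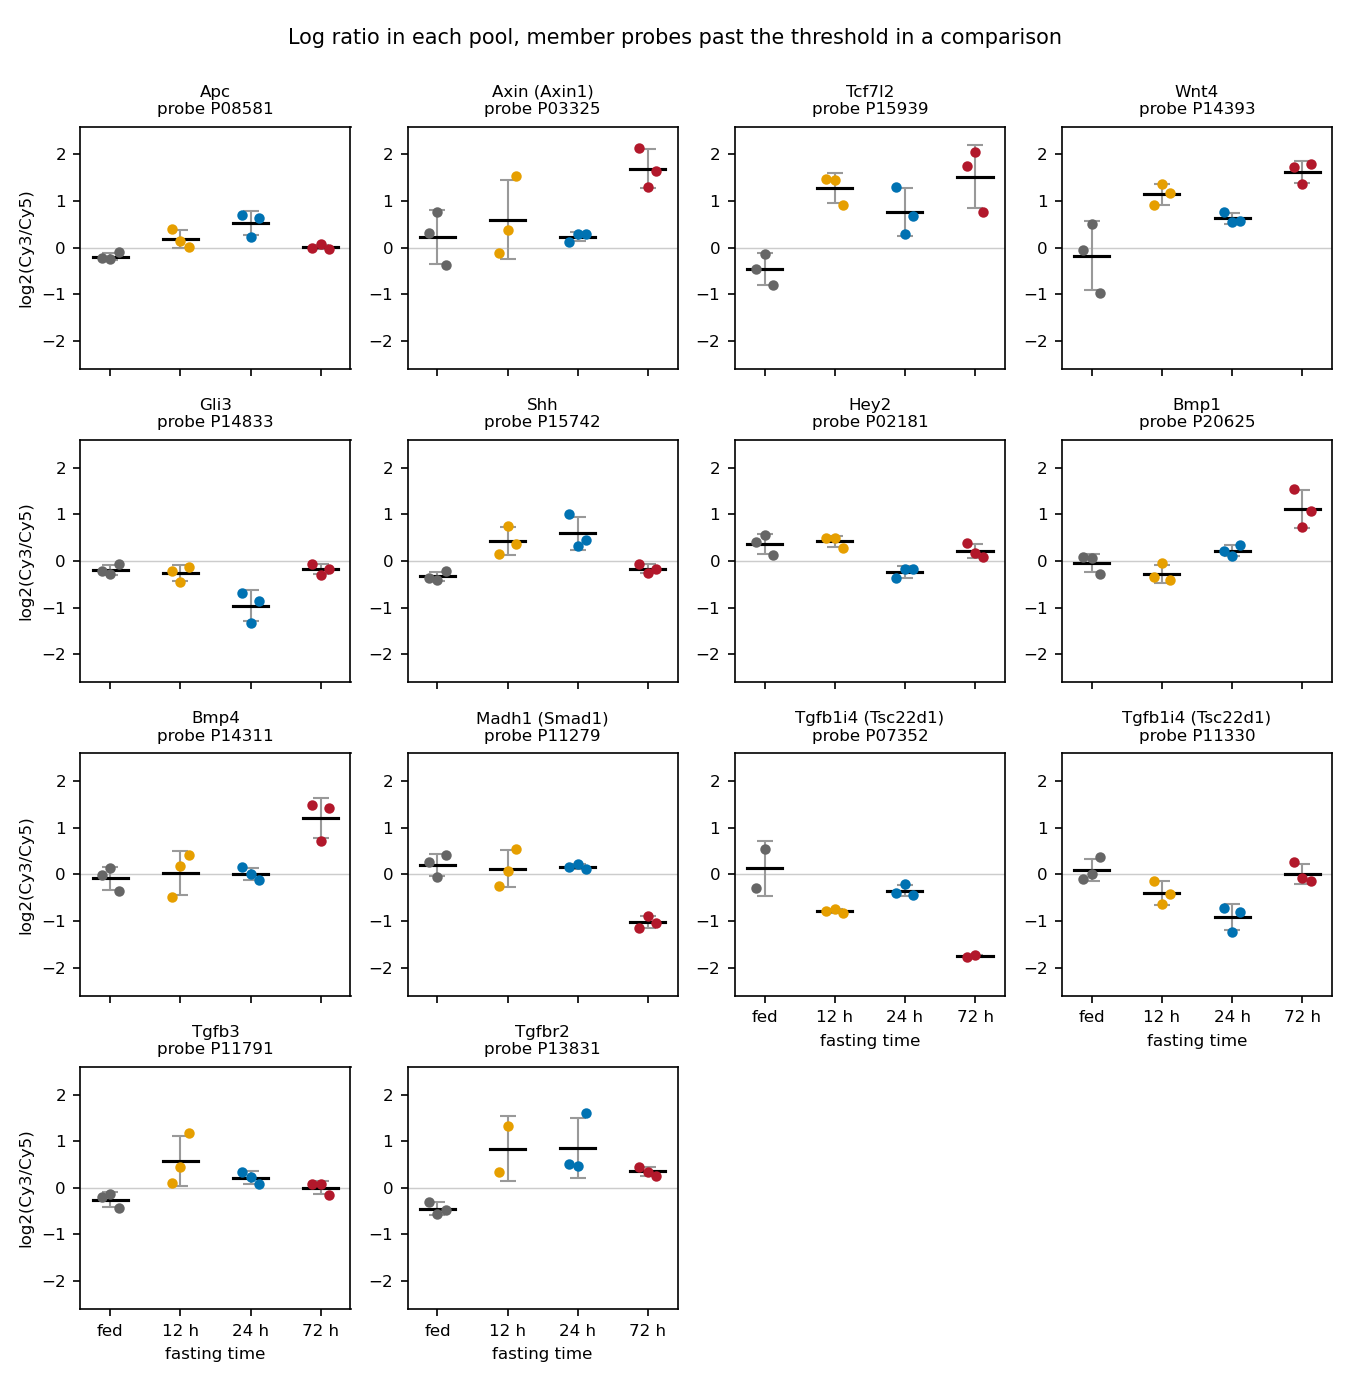
Log2(Cy3/Cy5) of each pool (points) for 14 member probes called in 1 or more of the comparisons with fed or of 24 h with 12 h, with the mean (black line) and SD (grey bar) of each time point, over fed, 12, 24 and 72 h of fasting. At 72 h the Wnt4 pools lay between 1.36 and 1.79, above all fed pools, and the Smad1 pools between -1.15 and -0.88, below all fed pools.

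Because Wnt4, Tcf7l2 and Bmp4 were the pathway genes with higher expression at 72 h than fed for which a promoter was in the RefSeq table (GRCm38.p6), and Hey2 the only member called at 24 h against 12 h, the 250 bases before their transcription start are shown, 5' to 3' on the gene's strand. Capitals mark matches, on either strand, to 4 short motifs bound by the factors at the end of the pathways: CTTTGA for TCF/LEF, GTGGGAA for the Notch effector RBPJ, CCACCCA for Gli proteins and GGCGCC for BMP-activated Smads. None of these motifs overlaps another in the sequences shown.
Wnt4, chr4:137277385-137277634, plus strand: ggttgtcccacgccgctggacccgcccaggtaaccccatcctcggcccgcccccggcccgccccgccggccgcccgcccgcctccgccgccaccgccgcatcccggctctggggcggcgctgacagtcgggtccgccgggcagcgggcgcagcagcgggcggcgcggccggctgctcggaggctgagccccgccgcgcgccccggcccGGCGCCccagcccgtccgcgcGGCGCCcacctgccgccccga
Tcf7l2, chr19:55741560-55741809, plus strand: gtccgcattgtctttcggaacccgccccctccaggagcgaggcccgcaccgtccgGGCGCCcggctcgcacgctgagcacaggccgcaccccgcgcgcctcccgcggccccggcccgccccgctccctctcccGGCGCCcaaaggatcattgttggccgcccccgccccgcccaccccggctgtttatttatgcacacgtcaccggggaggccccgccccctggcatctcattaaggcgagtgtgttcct
Bmp4, chr14:46390670-46390919, minus strand: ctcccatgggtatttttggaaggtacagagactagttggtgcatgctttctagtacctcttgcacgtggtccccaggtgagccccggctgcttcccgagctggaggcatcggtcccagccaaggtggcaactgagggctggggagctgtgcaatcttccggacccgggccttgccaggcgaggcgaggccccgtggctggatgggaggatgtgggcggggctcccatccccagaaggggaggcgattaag
Hey2, chr10:30842784-30843033, minus strand: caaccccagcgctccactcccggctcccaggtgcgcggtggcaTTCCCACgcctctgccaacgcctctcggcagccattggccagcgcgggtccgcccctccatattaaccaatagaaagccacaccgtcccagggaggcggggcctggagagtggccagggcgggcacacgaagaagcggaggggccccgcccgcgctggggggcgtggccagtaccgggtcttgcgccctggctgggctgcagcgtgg
GGCGCC occurred at 2 places in the Wnt4 window, 42 and 21 bases before the start, and at 2 in the Tcf7l2 window, 195 and 117 bases before it. The Hey2 window held TTCCCAC, the RBPJ motif read on the other strand, 207 bases before the start, and the Bmp4 window held none of the motifs. Tcf7l2 has 2 starts in the table, of which the more upstream is shown, and the array does not tell which start a probe reads. Over all 32851 windows of that length, 13.8% held the TCF/LEF motif, 5.42% that of RBPJ, 8.11% that of Gli and 9.59% that of Smads. Of the 58 member genes, 41 were in the table with 54 windows, of which 5, 3, 3 and 14 held these motifs in the same order. A match is a string of letters, and binding was not measured.

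Among the Wnt ligands, Wnt4 was upregulated and the other 5 (Wnt2, Wnt5a, Wnt5b, Wnt6 and Wnt7a) were not called at any time. Wnt4, a ligand made by the stroma of many epithelial organs, read -0.04, 0.50 and -0.97 in the fed pools (probe A_65_P14393). It rose to 0.91, 1.36 and 1.18 at 12 h, stood at 0.77, 0.55 and 0.58 at 24 h, and reached 1.74, 1.36 and 1.79 at 72 h. All 9 fasted pools lay above all fed pools, of which the third was the lowest. The increase was 2.49-fold at 12 h (log2 change 1.32 ± 0.28 SE, adjusted p = 0.013) and 3.49-fold at 72 h (1.80 ± 0.28, adjusted p = 0.0014), whereas the 24 h value of 0.80 ± 0.28 did not pass (adjusted p = 0.082). The calls at 12 and 72 h held without any single array, but at 12 h Cy3 contributed 0.61 and a lower Cy5 signal (-0.71) the rest, and Cy3 alone did not pass (adjusted p = 0.28). At 72 h Cy3 rose by 1.97 while Cy5 differed by 0.17. Wnt4 at 72 h also exceeded 24 h (1.00 ± 0.28, adjusted p = 0.036), a call lost without any 1 of the 24 or 72 h arrays or fed pool 1 (0.92 to 1.13).

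Among the other ligands, Wnt5a, a ligand of the villus mesenchyme, changed by -0.16, -0.22 and -0.01 at 12, 24 and 72 h. Wnt6, found in crypt epithelium, changed by 0.06, 0.03 and 0.40 (adjusted p of 0.22 or more). At 72 h the 95% interval of Wnt5a was -0.42 to 0.41 and that of Wnt6 -0.02 to 0.82. Wnt5b came nearest to a call at 12 h, with -0.86 over 2 of the 3 pools (adjusted p = 0.058), and Wnt7a changed by -0.64 there, its pool 3 at -1.46 next to -0.21 and -0.58. The 3 Frizzled receptors lay below fed at 12 h by 0.29 (Fzd3), 0.56 (Fzd7) and 0.66 (Fzd10) on the log2 scale without passing. Fzd7, a receptor of crypt stem cells, read 0.29, 0.66 and 0.13 in fed pools and -0.75, 0.09 and -0.12 at 72 h, without overlap, but its change of -0.62 ± 0.23 did not pass (adjusted p = 0.10). Of the secreted inhibitors, Dkk3 changed by -0.55 at 12 h and 0.28 at 72 h, neither called against fed, and Dkk1 and Dkk2 were not called either.

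Within the cytoplasm, Axin (now Axin1), the scaffold of the complex that degrades beta-catenin, was upregulated at 72 h. Its fed pools read 0.31, 0.76 and -0.38, its 72 h pools 2.14, 1.30 and 1.64, and at 24 h it stood at 0.13, 0.29 and 0.29. All 72 h pools were above all fed and 24 h pools, while at 12 h pool 3 stood apart at 1.54 next to -0.11 and 0.37. The rise at 72 h was 2.76-fold (1.47 ± 0.36, adjusted p = 0.019), carried by Cy3 (1.55) with Cy5 at 0.08. It did not pass without fed pool 1 or 3 or without 72 h pool 1 or 3, and ranged from 1.16 to 1.73 over the fits without an array. Apc, the other core member of that complex, had 3 probes that disagreed: probe A_65_P08581 rose 1.64-fold at 24 h (0.71 ± 0.16, adjusted p = 0.018), while probes A_65_P07247 and A_65_P07382 changed by 0.34 and -0.36 without passing. The called Apc probe read 0.71, 0.24 and 0.63 at 24 h, above the fed values of -0.23, -0.24 and -0.10, and lost its call without fed pool 1 or 2 or without 24 h pool 1 or 3 (0.62 to 0.86). Dvl2, which relays the signal from Frizzled, was not well above background on any fed array and was not called at any time.

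At the transcription factor level, Tcf7l2 was the only member called at each fasting time. The probe (A_65_P15939) read -0.45, -0.13 and -0.81 in fed pools, 1.47, 1.45 and 0.91 at 12 h, then 1.31, 0.30 and 0.67 at 24 h and lastly 1.76, 2.05 and 0.76 at 72 h. Every fasted pool was above every fed pool, but the probe was well above background in Cy3 on only 2 of the 3 fed arrays. The increase was 3.34-fold at 12 h (1.74 ± 0.32, adjusted p = 0.0069), 2.34-fold at 24 h (1.22 ± 0.32, adjusted p = 0.029) and 3.96-fold at 72 h (1.99 ± 0.32, adjusted p = 0.0017), and the differences between fasting times did not pass. The reference signal of this probe was far from constant, since Cy5 was higher than on fed arrays by 0.76 at 12 h and by 2.73 at 24 h but only by 0.36 at 72 h, and Cy3 by 2.50, 3.95 and 2.35. The 24 h call was lost without fed pool 1 or 3 or 24 h pool 1 or 3 (0.95 to 1.46), while those at 12 and 72 h held without any single array. Its relatives Tcf7, with -0.37 at 72 h, and Lef1, with -0.03 on probe A_65_P04832, were not called, and Tcf7 read -1.05 in 72 h pool 1 next to 0.01 and 0.10 in the others.

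**Figure D2:**
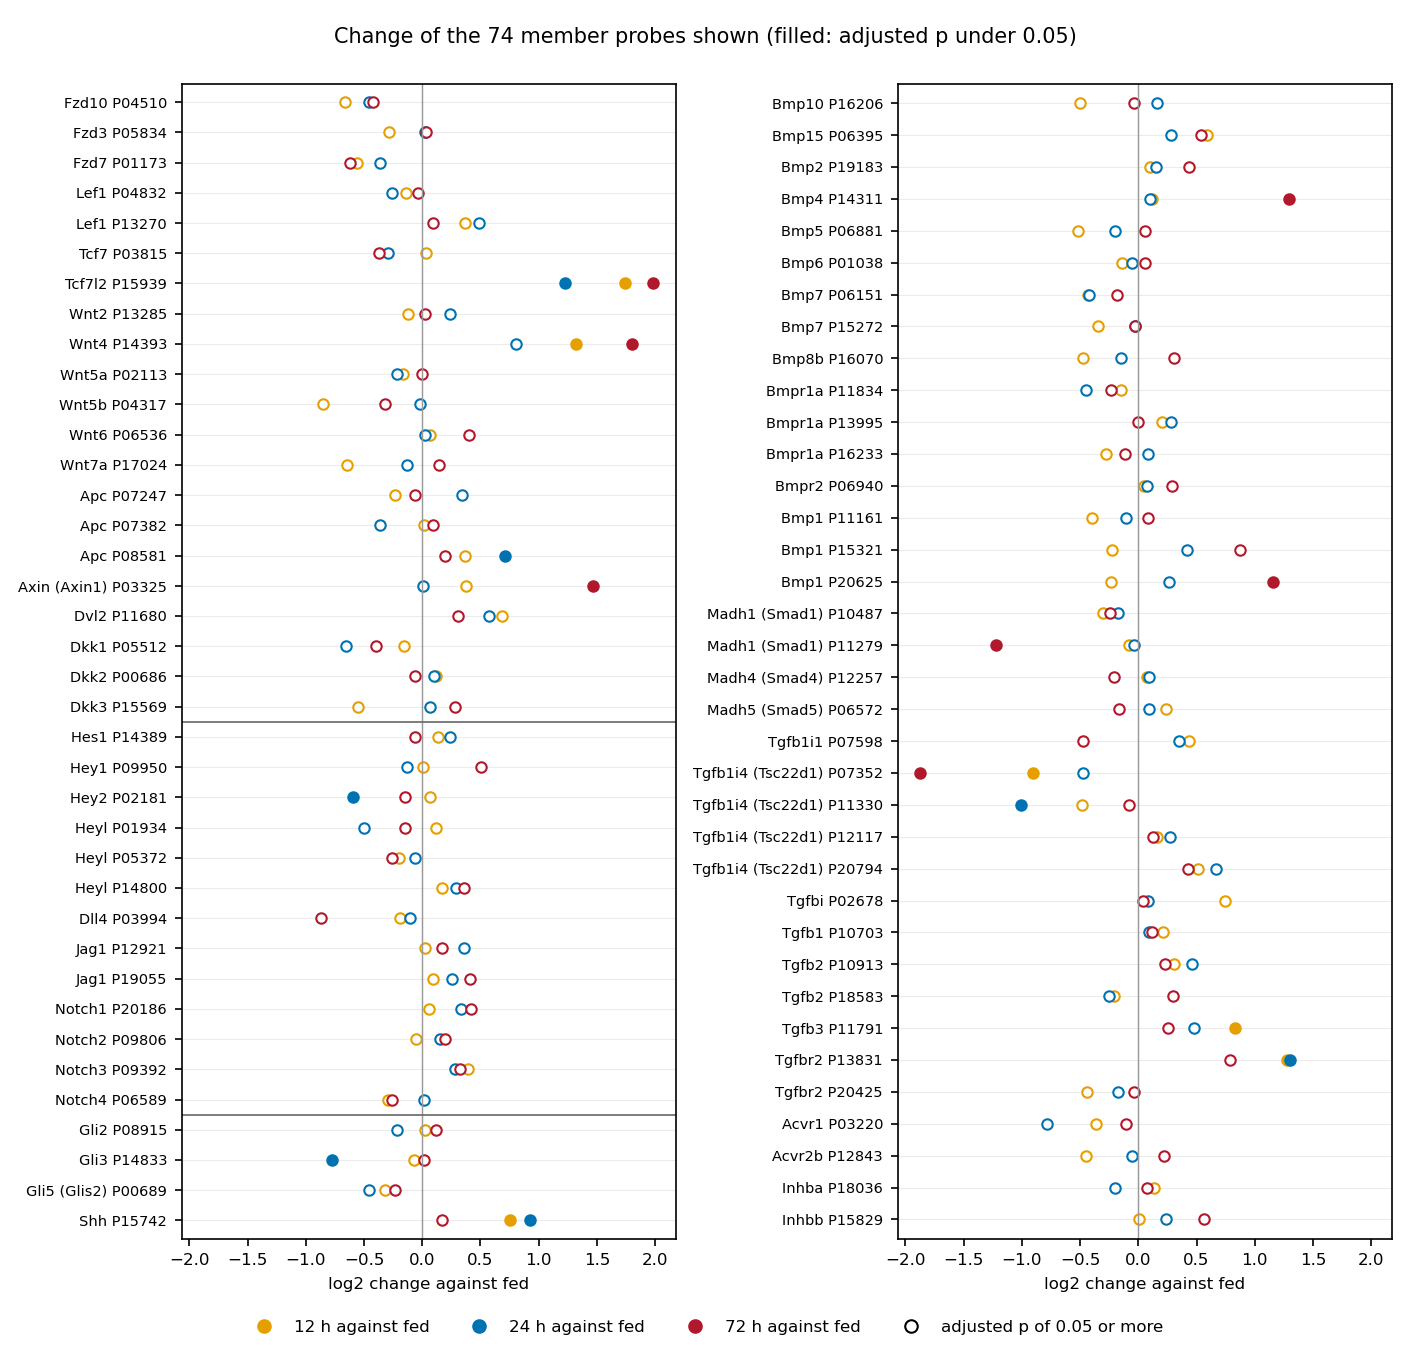
Log2 change against fed at 12 h (orange), 24 h (blue) and 72 h (red) for 74 member probes, grouped by pathway (horizontal lines), with filled points for an adjusted p under 0.05, and the 12 probes not well above background on any fed array plotted as measured. Most points lay near 0, and the largest increases were those of Tcf7l2 and Wnt4 at 72 h (1.99 and 1.80), the largest decrease that of a Tgfb1i4 probe at 72 h (-1.87).

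The Wnt genes outside the name rule, from a list of modulators and targets, gave 21 measured genes. Of these, 1 fell at 12 h, none was called at 24 h, and 1 rose and 1 fell at 72 h, with a median change of 0.15, 0.15 and -0.05. At 24 h limma had 4 genes of the list at an unadjusted p under 0.05. Ccnd1, the cyclin D1 gene and a textbook Wnt target, read -0.31, -0.18 and 0.51 in fed pools and -1.36, -1.12 and -1.18 at 72 h, a 2.34-fold decrease (-1.23 ± 0.20, adjusted p = 0.0017). Myc, Cd44, Ephb2, Ephb3 and Wisp1 of the same list changed by -0.38, -0.05, -0.16, -0.21 and 0.03 at 72 h against fed without a call. Gsk3b, the kinase that marks beta-catenin for destruction, rose 1.68-fold at 72 h (0.75 ± 0.16, adjusted p = 0.0087), with 0.61, 0.54 and 0.81 above the fed values of -0.07, -0.06 and -0.15. Tle1, a Groucho corepressor of TCF, fell by 1.08 on the log2 scale at 12 h (adjusted p = 0.016), where 2 of the 3 pools gave a value, -0.82 and -1.21, both below the fed values of -0.01, -0.27 and 0.49.

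Against fed, Hey2 was the single Notch member called. None of the 4 receptors, of the ligands Jag1 and Dll4 or of the Hes1, Hey1 and Heyl probes was called against fed at any time, and the 13 probes had a median change of 0.05, 0.16 and 0.17 at 12, 24 and 72 h, with 0, 3 and 3 probes at an unadjusted p under 0.05 (limma). Hey2, a repressor switched on by Notch in vessels and muscle, read 0.41, 0.55 and 0.13 in fed pools, 0.50, 0.49 and 0.29 at 12 h, and -0.37, -0.17 and -0.16 at 24 h, then 0.38, 0.17 and 0.08 at 72 h. The 24 h pools lay below all others. Hey2 at 24 h was 1.51-fold lower than fed (-0.60 ± 0.16, adjusted p = 0.032) and 1.58-fold lower than at 12 h (-0.66 ± 0.16, adjusted p = 0.040). Its probe was well above background in Cy3 on 2 of the 3 arrays of both the fed and the 24 h group. The difference from 12 h was within a file format, but it was lost in 9 of the 12 fits without an array (-0.73 to -0.59), all but those without fed pool 3 or 12 h pool 1 or 3. Of 8 other ways of processing, 1 kept it. The difference from fed was lost without fed pool 1 or 2 or any 24 h pool (-0.71 to -0.50).

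Hes1, the main Notch target of crypt progenitors, read -0.03, -0.05 and -0.06 in fed pools and -0.13, -0.10 and -0.10 at 72 h, a change of -0.06 with a 95% interval of -0.47 to 0.35. Hey1, called at 72 h against 24 h (0.64, adjusted p = 0.037), changed by 0.51 at 72 h against fed (adjusted p = 0.091), and its 72 h pools, at 0.56, 0.19 and 0.50, were all above the fed pools at -0.06, -0.10 and -0.11. Dll4, a ligand of crypt and endothelial cells, changed by -0.87 at 72 h (adjusted p = 0.056), with the 72 h pools at -1.60, -0.55 and -0.42 all below the fed ones, and the first of them far below. Notch1, the receptor of crypt progenitors, changed by 0.42 and Notch2 by 0.20 at 72 h, and the Jag1 probes by 0.17 and 0.41. Notch3, the receptor of vascular smooth muscle, changed by 0.39, 0.28 and 0.32 at 12, 24 and 72 h, Notch4 by -0.30, 0.01 and -0.26, and the 3 Heyl probes by -0.26 to 0.35 at 72 h.

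Of the 11 measured Notch modulators on the wider list, 1 rose at 12 h, none passed at 24 h with limma (1 at an unadjusted p under 0.05), and 2 fell at 72 h. Nrarp, a Notch target that feeds back on the receptor complex, read -0.16, -0.16 and 0.30 in fed pools and -1.25, -0.96 and -0.83 at 72 h, a 2.01-fold decrease (-1.01 ± 0.17, adjusted p = 0.0024). Numb, an inhibitor of Notch, fell 1.94-fold at 72 h (-0.96 ± 0.21, adjusted p = 0.0087), with -0.78, -0.81 and -0.74 below the fed values of -0.12, -0.07 and 0.73. Adam17, one of the proteases that cleave Notch, rose 1.61-fold at 12 h (0.69 ± 0.17, adjusted p = 0.023) and at 24 h was lower than at 12 h by 1.08 on the log2 scale (adjusted p = 0.0051).

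The hedgehog members were few. Shh, the ligand made by crypt epithelium, read -0.37, -0.41 and -0.21 in fed pools, 0.16, 0.75 and 0.37 at 12 h, then 1.00, 0.33 and 0.46 at 24 h and lastly -0.07, -0.26 and -0.16 at 72 h. The pools at 12 and 24 h lay above all fed pools, and those at 72 h overlapped the fed ones. Shh exceeded fed 1.69-fold at 12 h (0.76 ± 0.20, adjusted p = 0.028) and 1.90-fold at 24 h (0.92 ± 0.20, adjusted p = 0.013), and its 72 h level was below that at 24 h (-0.76 ± 0.20, adjusted p = 0.026). At 12 h the Cy3 change was 0.01 and the Cy5 change -0.75, so the ratio rested on Cy5, whereas at 24 h the Cy3 change was 0.66 and did not pass alone (adjusted p = 0.073). The 12 h call was lost without any 1 fed pool or 12 h pool 2 (0.60 to 0.89), the 24 h call without fed pool 1 or 24 h pool 1 (0.72 to 1.06), and that between 72 and 24 h without 24 h pool 1 or 3 or any 72 h pool (-0.89 to -0.55).

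Gli3 acts mainly as the repressor of hedgehog targets. Its probe was not well above background in Cy3 on any fed array, nor on every array of any other time point, so no fold is given. Its measured log ratio was lower at 24 h, where the pools read -0.68, -1.33 and -0.86 against fed values of -0.22, -0.27 and -0.07 (-0.77 ± 0.18, adjusted p = 0.018). Its 72 h pools, at -0.06, -0.29 and -0.16, were back among the fed values and above 24 h (0.79 ± 0.18, adjusted p = 0.014). The 24 h difference lay in the reference, as Cy5 was higher by 0.94 and Cy3 changed by 0.16, the opposite direction. It was lost without fed pool 1 or 3 or 24 h pool 2 (-0.91 to -0.58), and the difference between 72 and 24 h without 24 h pool 2 or 72 h pool 1 or 3 (0.60 to 0.93). Gli2, the main activator, changed by 0.02, -0.22 and 0.12 and Gli5 (now Glis2), a more distant relative, by -0.32, -0.46 and -0.23, all without a call. None of the 4 measured hedgehog genes on the wider list (Sufu, Dhh, Boc and Gas1) was called at 12, 24 or 72 h with limma, nor at an unadjusted p under 0.05 (0 genes), and their changes at 72 h lay between -0.19 and -0.02.

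Among the 8 BMP ligands, Bmp4, which the stroma around and above the crypt makes, was upregulated at 72 h. The probe (A_65_P14311) read -0.02, 0.13 and -0.36 in fed pools, -0.49, 0.18 and 0.42 at 12 h, then 0.15, 0.01 and -0.12 at 24 h and lastly 1.49, 0.72 and 1.43 at 72 h. Only the 72 h pools stood apart, above all 9 others. The rise was 2.45-fold against fed (1.30 ± 0.25, adjusted p = 0.0045), 2.26-fold against 12 h (1.17 ± 0.25, adjusted p = 0.0096) and 2.29-fold against 24 h (1.20 ± 0.25, adjusted p = 0.0091). For these last comparisons, 72 h against 12 h and against 24 h, 10.7% and 10.6% of all probes were called. Against fed, Cy3 rose by 1.65 and Cy5 by 0.36, and the call held without any single array but not with median centring only. The difference from 12 h was lost without 72 h pool 1 or 3 (0.91 to 1.42) and that from 24 h without 72 h pool 1 (1.06 to 1.45).

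The rest of the ligands were not called against fed. Bmp2, a ligand of villus epithelium and mesenchyme, came nearest at 72 h, with 0.41, 0.39 and 0.33 above the fed values of 0.01, -0.08 and -0.12 (0.44 ± 0.14, adjusted p = 0.069). Its ratio at 12 and 24 h was steady (0.10 and 0.15) although Cy3 and Cy5 each moved by 0.81 or more. Bmp5 changed by -0.52 at 12 h over 2 of the 3 pools (adjusted p = 0.10), and the Bmp7 probes by -0.35 and -0.43. At 72 h Bmp6 changed by 0.06, Bmp10 by -0.03 and Bmp15 by 0.54 (adjusted p = 0.13). Bmp8b, which lies outside the rule for named genes and was chosen after its values were seen, was higher at 72 h than at 12 h (0.78 ± 0.15, adjusted p = 0.0064), with 0.47, 0.25 and 0.44 against -0.57, -0.34 and -0.26, and kept that call without any single array but not with median centring only.

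Bmp1, despite its name a protease that trims procollagens and the BMP inhibitor chordin, had 3 probes that did not move alike. Probe A_65_P20625 read 0.09, 0.06 and -0.27 in fed pools, -0.35, -0.05 and -0.41 at 12 h, then 0.21, 0.11 and 0.35 at 24 h and lastly 1.54, 0.74 and 1.07 at 72 h, where all pools were above the other 9. It was 2.23-fold higher than fed (1.16 ± 0.20, adjusted p = 0.0024), with a Cy3 change of 0.75 (adjusted p = 0.11 alone) and a Cy5 change of -0.40. Probe A_65_P15321 read 1.07, 1.06 and 1.13 at 72 h, above its fed values of 0.39, 0.41 and -0.17, but its change of 0.87 ± 0.29 did not pass (adjusted p = 0.067). Probe A_65_P11161, well above background on 1 of the 3 fed arrays, changed by 0.08, with a 95% interval of -0.25 to 0.41.

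The receptors Bmpr1a (3 probes) and Bmpr2 were not called, with changes at 72 h between -0.23 and 0.29. Of the intracellular Smads, Madh1 (now Smad1), which BMP receptors phosphorylate, fell at 72 h on 1 of its 2 probes. Probe A_65_P11279 read 0.26, -0.05 and 0.41 in fed pools, -0.24, 0.07 and 0.54 at 12 h, then 0.17, 0.22 and 0.11 at 24 h and lastly -1.15, -0.88 and -1.03 at 72 h, far below every other pool. The decrease was 2.34-fold against fed (-1.23 ± 0.19, adjusted p = 0.0015), 2.22-fold against 12 h (adjusted p = 0.0032) and 2.28-fold against 24 h (adjusted p = 0.0027). It lay in Cy3 (-1.21) with Cy5 at 0.01, and these calls held without any single array. The other probe, A_65_P10487, read -0.42, -0.38 and -0.34 at 72 h within the fed range of -0.43 to 0.28 (-0.24 ± 0.18, adjusted p = 0.46). Its 95% interval was -0.63 to 0.15. Madh5 (now Smad5) and Madh4 (now Smad4), the partner shared by BMP and TGF-beta signals, changed by -0.17 and -0.21 at 72 h and were not called.

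**Figure D3:**
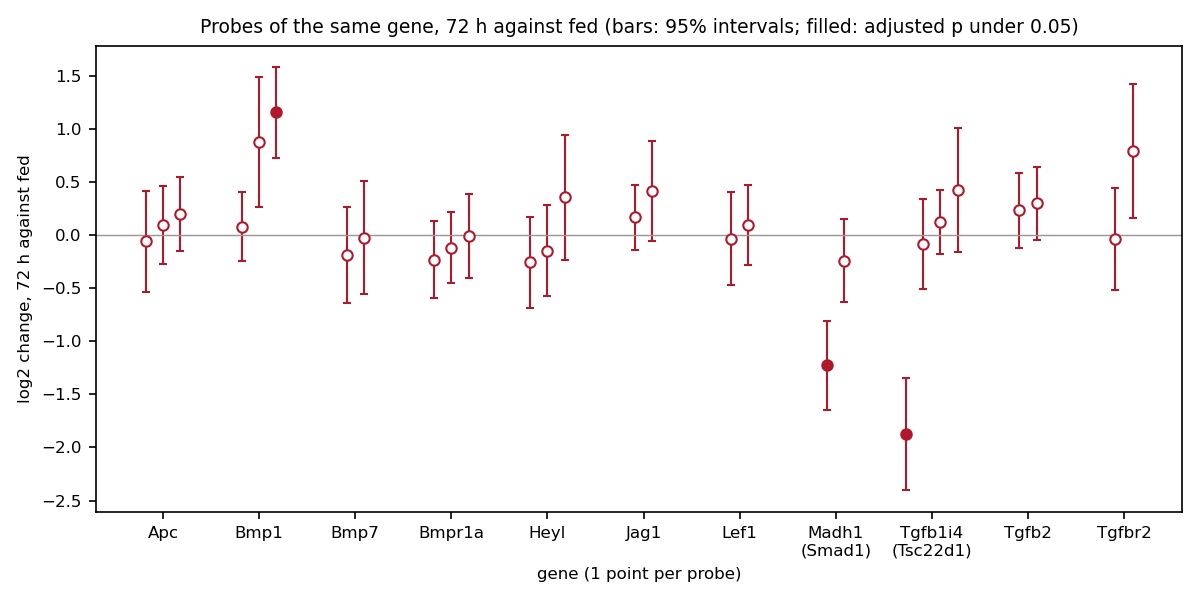
Log2 change at 72 h against fed for every probe of the 11 member genes with more than 1 probe (points), with 95% intervals (bars) and filled points for an adjusted p under 0.05. Smad1, Bmp1 and Tgfb1i4 each had a called probe and at least 1 probe that was not called, at -0.24 for Smad1, 0.08 and 0.87 for Bmp1 and -0.08 and 0.12 for Tgfb1i4, whereas the Bmpr1a and Bmp7 probes lay close together. The Lef1, Tgfb1i4, Tgfb2 and Tgfbr2 probes that were not well above background on any fed array are plotted as measured.

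Calls against fed in the TGF-beta branch were Tgfb3 at 12 h, Tgfbr2 at 12 and 24 h and a Tgfb1i4 probe each time. At 72 h no TGF-beta ligand or receptor was called against fed, only a Tgfb1i4 probe. Tgfb3, a ligand of mesenchyme, was not well above background on any fed array and read 0.11, 0.45 and 1.17 at 12 h against -0.19, -0.14 and -0.43 in fed pools, without overlap (0.83 ± 0.22, adjusted p = 0.031). In Cy3 after loess within arrays, its 12 h mean was at least 1.44-fold the fed mean, a bound given without an interval. For it, fed values were raised at least to the dimmest spot well above background on their array. The call was lost without any 1 fed pool or 12 h pool 3 (0.53 to 1.06), and it was not called at 24 or 72 h. Tgfb1 changed by 0.21, 0.09 and 0.12 without a call, and neither of the 2 Tgfb2 probes, not well above background on any fed array, was called against fed.

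Tgfbr2, the receptor that binds TGF-beta ligands, was 2.43-fold higher at 12 h (1.28 ± 0.33, adjusted p = 0.028, 2 pools at 12 h) and 2.47-fold at 24 h (1.30 ± 0.29, adjusted p = 0.017) on probe A_65_P13831. This probe read -0.30, -0.56 and -0.47 in fed pools, 0.35 and 1.33 at 12 h, then 0.51, 0.47 and 1.60 at 24 h and lastly 0.45, 0.35 and 0.26 at 72 h. All fasted pools were above the fed ones, with 12 h pool 3 and 24 h pool 3 highest. Probe A_65_P13831 was well above background in Cy3 on 2 of the 3 fed arrays. The 12 h call was lost without any 1 fed pool or 12 h pool 3 (0.79 to 1.77), and the 24 h call without any 1 fed pool (0.93 to 1.5). The second probe, A_65_P20425, was not well above background on any fed array and was not called.

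Tgfb1i4 (now Tsc22d1), a leucine zipper protein induced by TGF-beta, had 4 probes with different courses. Probe A_65_P07352 read -0.29 and 0.55 in 2 fed pools, -0.78, -0.73 and -0.82 at 12 h, then -0.40, -0.21 and -0.43 at 24 h and lastly -1.76 and -1.73 in 2 pools at 72 h. It fell 1.87-fold by 12 h (-0.91 ± 0.22, adjusted p = 0.026) and 3.67-fold by 72 h (-1.87 ± 0.24, adjusted p = 0.00079), the largest fall among the members, with Cy3 down by 1.64 at 72 h. The 12 h call was lost without fed pool 3 (the fits without an array gave -1.32 to -0.49). The ratio of probe A_65_P11330 was 2.01-fold lower at 24 h instead (-1.01 ± 0.20, adjusted p = 0.0091), where Cy5 was higher by 0.89 and Cy3 changed by -0.12. That probe was well above background in Cy3 on 1 of the 3 fed arrays. Probe A_65_P12117 changed by 0.16 at 12 h and by 0.12 at 72 h without a call, and A_65_P20794, not well above background on any fed array, was not called. Tgfb1i1 (Hic-5, a focal adhesion protein of smooth muscle) was lower at 72 h than at 12 h (-0.91 ± 0.21, adjusted p = 0.014, lost without 72 h pool 1 or 3, -0.98 to -0.83), while against fed its -0.47 did not pass (adjusted p = 0.17), and it too was named after its values were seen. The activin genes Acvr1, Acvr2b, Inhba and Inhbb and the matrix gene Tgfbi were not called. Acvr1 changed by -0.78 at 24 h (adjusted p = 0.077), and Inhba and Inhbb were not well above background on any fed array.

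Of the 16 BMP and TGF-beta genes measured on the wider list, none was called at 12 h with limma (4 at an unadjusted p under 0.05), 1 fell at 24 h and 1 rose at 72 h. Cktsf1b1 (now Grem1), the gene of gremlin 1, a BMP antagonist made by muscle and crypt stroma, rose 6.82-fold at 72 h (2.77 ± 0.66, adjusted p = 0.015). It read 0.20, 0.59 and -0.90 in fed pools, -1.01, 0.45 and 2.73 at 12 h, then 1.06, 0.46 and 0.93 at 24 h and lastly 3.06, 2.11 and 3.03 at 72 h, so the 72 h pools were above all fed and 24 h pools, and 12 h pool 3 lay among them. Noggin (Nog), another antagonist, changed by 0.51 at 72 h against fed (adjusted p = 0.21) and was higher than at 12 h (1.12 ± 0.25, adjusted p = 0.012). Ltbp1, which binds latent TGF-beta, fell at 24 h (-0.66 ± 0.20, adjusted p = 0.048).

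**Figure D4:**
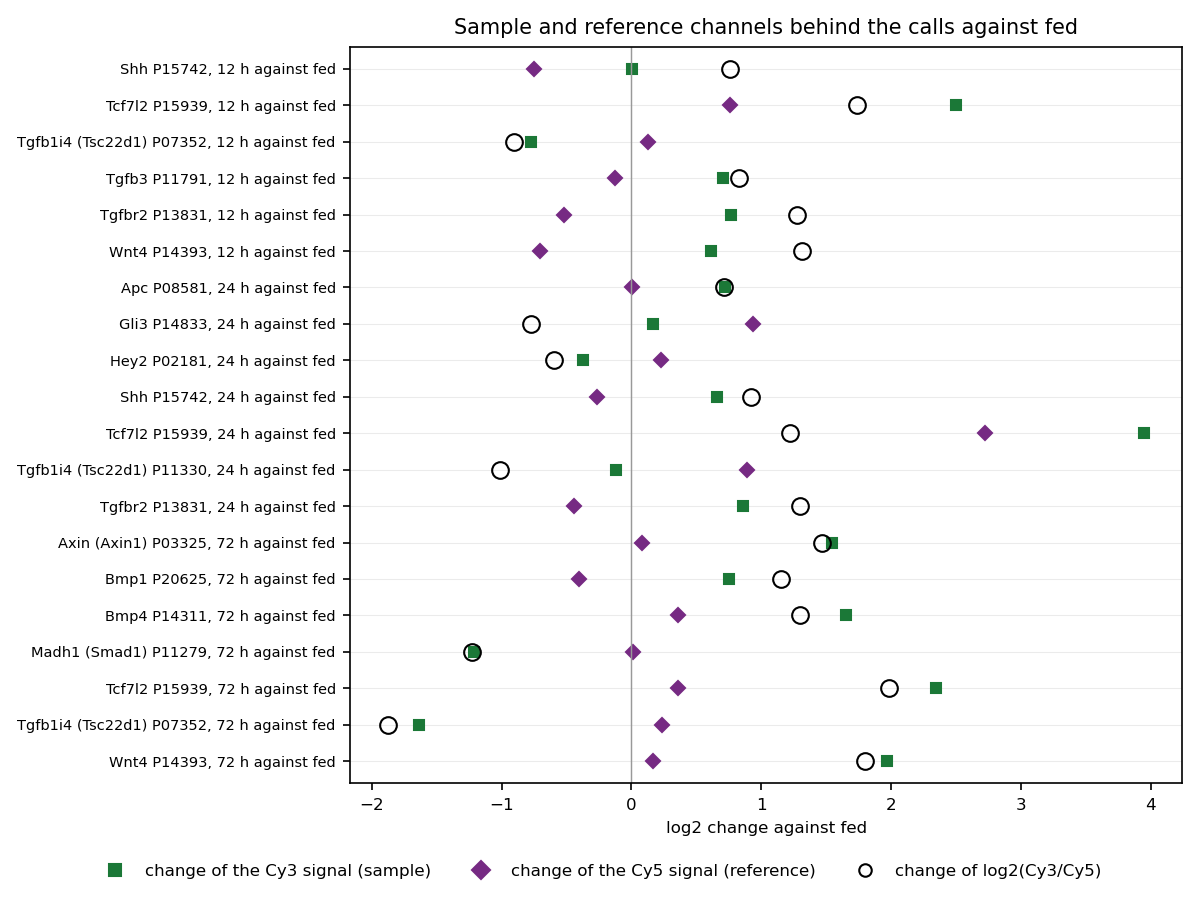
Change against fed of the Cy3 signal (green squares, sample), the Cy5 signal (purple diamonds, reference) and their log ratio (open circles), log2, for 20 calls against fed. At 72 h the Cy5 changes lay between -0.40 and 0.36, while at 24 h the Cy5 value of Tcf7l2 reached 2.73.

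The channels behind the calls differed by time. At 72 h the Cy5 change of the 7 called probes shown lay between -0.40 and 0.36. At 12 h it lay between -0.75 and 0.76, and at 24 h between -0.44 and 2.73, and there the calls of Gli3 and of Tgfb1i4 probe A_65_P11330 rested on Cy5.

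The calls of Wnt4, Tcf7l2, Axin1, Smad1 and Tgfb1i4 probe A_65_P07352 at 72 h against fed held under every other way of processing that was run, though that of Axin1 was lost without fed pool 1 or 3 or 72 h pool 1 or 3. In Cy3 alone the calls of Wnt4, Shh and Tgfbr2 at 12 h, Shh, Hey2, Gli3 and Tgfb1i4 probe A_65_P11330 at 24 h, and Bmp1 at 72 h did not pass. None of the 7 calls at 12 h passed when only the fed and 12 h arrays were fitted (limma, 14 members at an unadjusted p under 0.05). Without background correction Tcf7l2, Hey2 and Tgfbr2 at 24 h and Shh and Tgfbr2 at 12 h were no longer called. With median centring only the same held for Wnt4 at 12 h, Gli3 at 24 h and Bmp4 at 72 h. Tgfb1i4 probe A_65_P07352 and Tgfbr2 at 12 h were lost with the ratio of the scanning software, and Hey2 at 24 h when tested directly against the reference. A block for the replicate number ended the calls of Shh, Tgfb3 and that Tgfb1i4 probe at 12 h.

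Markers of other cells of the gut wall moved beside these results. Of 7 smooth muscle genes, 4 were higher at 12 h (Acta2, Actg2, Des and Smtn, 2.70-fold to 5.19-fold), 2 at 24 h and 2 at 72 h (Myh11 and Des, 1.93-fold and 2.6-fold), with a summed Cy3 signal of 6204 to 7936 in fed pools, 7291 to 9705 at 12 h, 6782 to 8176 at 24 h and 7515 to 8239 at 72 h. At 12 h, pool 3 was the highest for Actg2 (2.76), Smtn (1.84) and Acta2 (2.43, next to 0.36 in the only other pool with a value). For Des it was the lowest (0.91). Of 5 stromal genes, 2 were lower at 72 h (Col1a2 and Fn1, 2.00-fold and 1.80-fold). The summed signal of the 5 was 1376 to 2426 in fed pools, 2740 to 2939 at 12 h, 1825 to 2289 at 24 h and 1457 to 1802 at 72 h. Of 4 proliferation genes, Pcna was lower at 12 and 72 h (1.77-fold and 2.04-fold), and of the B and plasma cell list the only gene measured, Igj, was 9.31-fold lower at 72 h. Anpep of the 4 enterocyte genes and Mmp7 of the 2 Paneth genes were higher at 12 h (10.8-fold and 4.05-fold), where 12 h pool 3 stood at 4.54 and 2.71 and fed pool 3 at -2.87 and -2.03, the extremes of both genes. The 2 endothelial genes and the single T cell and nerve genes measured were not called against fed at 12, 24 or 72 h. Wnt4, Bmp4 and Grem1 are known from stroma and muscle, and the part of these cell types in their changes was not tested.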

How the data were processed

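The authors hybridised Cy3-labelled small intestinal RNA of 3 pools of 2 mice per time point with a Cy5-labelled fed reference to 2-colour Agilent mouse arrays, and deposited each array's scanner output, whose spot intensity is neither background-subtracted nor normalized. They also deposited a table of the scanning software's log10 ratio of Cy3 over Cy5, whose cells had partly lost their decimal point. Of these, 1822 were restored and 112 left out, and the table served only as an alternative. From the median foreground and background intensity, control, retired and outlier spots were left out, normexp background correction with an offset of 50 was applied, and quantile normalization was run over all 24 channels (limma 3.58.1, R 4.3.3). The log2(Cy3/Cy5) values of all 12 arrays were fitted with lmFit and eBayes with a mean per time point, and p-values were adjusted by Benjamini-Hochberg over all probes tested in a comparison. Intervals and p-values rest on 1 spread per probe, taken between pools within time points over all 12 arrays and moderated across probes. Arrays outside a comparison thus also bear on its calls, and the 3 pools per time point limit the precision. For the 12 member probes not well above background on any fed array, log ratios are as measured, and a fold against fed is printed only as a lower bound. That bound compares mean Cy3 after loess within and Aquantile normalization between arrays. The fit was tested on simulated data. Alternatives covered background correction, normalization, the software's ratio, Cy3 alone, the compared arrays alone, a replicate block, a direct test against the reference, the methods' threshold (unadjusted p under 0.01 and 1.4-fold) and each array left out. Gene names are those of the array design, and today's symbols were matched by gene number for all 75 member probes (10 differ). One member gene is included in the counts but not reported here. Named were all other called members and the main crypt and stromal ligands, receptors and effectors, with further members added after their values were seen so that most were accounted for by value. The members, this rule and the lists of pathway and marker genes (brightest probe per gene) were chosen with earlier results of these data known.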

Additional observations from a re-analysis of the deposited data

Results flagged for a closer look

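The fasting times differed from each other, by limma's test of the difference itself, for 21 probe comparisons among the members. They made up 1.33% of the members at 24 h against 12 h, 10.7% at 72 h against 12 h and 16% at 72 h against 24 h, next to 2.91%, 10.7% and 10.6% of all probes. Within a file format there was 1 of these, Hey2 at 24 h against 12 h (-0.66 on the log2 scale, adjusted p = 0.040), which was kept in 3 of the 12 fits without an array and in 1 of 8 alternatives.

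Between 72 and 12 h, Bmp1 was higher on probes A_65_P20625 (1.39, adjusted p = 0.0013) and A_65_P15321 (1.10, adjusted p = 0.026). The ligands Bmp4 (1.17, adjusted p = 0.0096) and Bmp8b (0.78, adjusted p = 0.0064) and the Wnt inhibitor Dkk3 (0.84, adjusted p = 0.038) were also higher at 72 h. Smad1 (-1.15, adjusted p = 0.0032), Tgfb1i1 (-0.91, adjusted p = 0.014) and Tgfb1i4 probe A_65_P07352 (-0.97, adjusted p = 0.018) were lower. The Dkk3 difference was kept in 4 of the 12 fits without an array (0.50 to 1.05), that of Bmp1 probe A_65_P15321 was lost without any 1 of the 72 h arrays (0.68 to 1.4), and that of Tgfb1i4 without 72 h pool 2 or 3 (-0.99 to -0.94).

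Between 72 and 24 h, higher values at 72 h were those of Axin1 (1.46, adjusted p = 0.021), Bmp4 (1.20, adjusted p = 0.0091), Wnt4 (1.00, adjusted p = 0.036), Tgfb1i4 probe A_65_P11330 (0.93, adjusted p = 0.010), Bmp1 probe A_65_P20625 (0.89, adjusted p = 0.013), Gli3 (0.79, adjusted p = 0.014), Hey1 (0.64, adjusted p = 0.037) and Tgfb2 probe A_65_P18583 (0.55, adjusted p = 0.042). Lower values were those of Tgfb1i4 probe A_65_P07352 (-1.4, adjusted p = 0.0034), Smad1 (-1.19, adjusted p = 0.0027), Tgfb1i1 (-0.82, adjusted p = 0.024) and Shh (-0.76, adjusted p = 0.026). Axin1 lost its call without any 1 of the 24 h arrays or 72 h pool 1 or 3 (1.23 to 1.65). The call was kept in 5 of the 12 fits without an array for Hey1 (0.57 to 0.76) and in 4 of 12 for Tgfb2 (0.51 to 0.61). Gli3 kept its call in 9 of 12. Of the other ways of processing, 4 of 7 kept the call of Gli3 and 4 of 8 those of Hey1 and Tgfb2. The calls of Gli3, Hey1, Tgfb2, Shh, Tgfb1i1 and Tgfb1i4 probe A_65_P11330 did not pass in Cy3 alone, where the change of Gli3 had the opposite sign. Tgfb1i1 lost its call without 24 h pool 1 or 2 or 72 h pool 1 or 3 (-0.95 to -0.72), and Bmp1 and Tgfb1i4 probe A_65_P11330 without 24 h pool 2 or 72 h pool 1 (0.68 to 1.08 and 0.77 to 1.03). These 20 comparisons of 72 h with the earlier times cross the change of file format and cannot be told apart from it.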

How the results depend on the processing

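With 3 pools per time point the counts of called members moved with the processing, and the cause was not tested. The counts below are of members alone, without the share of all probes called under the same setting. They do not show whether the members moved apart from the rest of the array. At 12 h against fed the 7 calls became 16 (6 higher, 10 lower) in Cy3 alone, 19 directly against the reference, 4 with a replicate block and 0 with only the compared arrays (14 members at an unadjusted p under 0.05). They ranged from 3 (without fed pool 1 or 3) to 14 (without 12 h pool 1) with an array left out, and were 4 without fed pool 2. At 24 h the 7 calls became 11 with loess, 14 with median centring, 13 with the software's ratio and 21 in Cy3 alone, and ranged from 1 (without fed pool 1) to 11 (without 12 h pool 3) with an array left out, with 4 without fed pool 3, 24 h pool 1 or 24 h pool 3. At 72 h the 8 calls became 17 with loess, 15 with the software's ratio, 14 with only the compared arrays and 20 directly against the reference, and ranged from 6 (without fed pool 1 or 72 h pool 1) to 14 (without 12 h pool 3). Between 24 and 12 h the single call became 6 in Cy3 alone, 5 at the methods' threshold, and 0 without background correction, with loess, with median centring, with the software's ratio and with only the compared arrays (limma, 17, 15, 9, 11 and 12 members at an unadjusted p under 0.05), and ranged from 0 to 3 with an array left out. Among values called in the main fit or in Cy3 alone, the sign turned in Cy3 for Bmp2 (24 h against 12 h, -0.76), Dkk3 (24 h, -1.13), Gli3 (24 h, 0.16, and 72 h against 24 h, -0.23), Inhba (24 h, 0.60), Tgfbr2 probe A_65_P20425 (24 h, 0.59), Wnt5a (12 h, 0.76) and Wnt6 (12 h, -0.74, and 24 h, -0.65). Sign changes among values called in neither were not listed. Of 5043 values recomputed under an alternative, counts of calls included, 4387 stayed the same. For called values that meant the same direction and a call, for uncalled ones no call and a shift below the SE, whatever the sign. For counts it meant a similar number. In 9, called in the main fit or the alternative, the direction turned. Replicate numbers did not pair the pools (r of deviations from -0.30 to 0.13 over 18 same-numbered pairs), and the replicate block gave 4, 7, 9 and 1 calls. Signal over background limits the comparisons with fed for 12 of the 75 member probes, which were not well above background in Cy3 on any fed array, and 2 of these reached it on all 3 arrays at no time point.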
